A study of Mus musculus with 2 samples.

Results

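The genes described here are 52 genes of the cell division cycle and of DNA replication, listed by name and function, with earlier results of these data known: G1 cyclins and their kinases, the inhibitors and pocket proteins that restrain them, replication genes of S phase, and genes of mitosis. A probe was found for 47 of them, out of 20545 genes or unnamed transcripts on the array. Bub1, Cdc20, Fen1, Kif11 and Mcm3 had no probe that the names in the files led to, and they were not analysed here. The 47 comprise all 9 G1 genes, all 7 of the inhibitor and pocket protein group, 14 of 16 S phase genes and 17 of 20 mitotic genes. That group of 7 also holds E2f1, a transcription factor gene that is neither.

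The RNA came from granulosa cells, the somatic cells that line the ovarian follicle and surround the oocyte. Female C57/Bl6 mice of 23 to 25 days, either Esr2+/- (het) or Esr2-/- (null) for the gene of estrogen receptor beta, had all been treated with PMSG, a gonadotropin with the action of follicle-stimulating hormone (FSH), for 48 h. Cells were pooled into 1 RNA sample per genotype, and the pools were set against each other on 2 two-colour arrays, with the null pool in Cy5 and the het pool in Cy3 on array 1 and the dyes exchanged on array 2. The controls were heterozygous, so no pool had both copies of Esr2 intact, and the number of animals in a pool is not given in the sources used here. Ratios are log2 of null over het, so a negative value is a lower signal in the null pool. Each SD is taken over the 2 technical hybridisations and holds no variation between animals, so no test of genotype was possible and no p-value of genotype is given. The number of arrays and pools, not a count of molecules, limits the precision.

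Cyclins bind cyclin-dependent kinases (CDKs) and switch them on in turn. D-type cyclins with CDK4 or CDK6 start the phosphorylation of the retinoblastoma protein, which frees E2F transcription factors to switch on the genes of DNA synthesis. Cyclins A and B with CDK1 later drive mitosis, while inhibitors such as p21 and p27 hold the kinases back. In granulosa cells FSH and estradiol together promote proliferation, cyclin D2 is the D-type cyclin that FSH induces there, and mice without it have granulosa cells that divide poorly.

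The pools had nearly the same signal for these genes as a group. The median log2 ratio of the 47 measured genes was -0.015, against -0.0037 for all 18508 genes or transcripts well above background in at least 1 pool on both arrays. All 47 passed that mark in each pool on each array, so none entered through 1 pool alone, and none was saturated. None reached a mean difference of 2-fold with at least 1.5-fold on each array, a size that 0.0378% of all genes reached upward and 0.0919% downward. None reached a mean of 1.5-fold with the same sign on both arrays either, against 0.405% of all genes upward and 0.427% downward. At a size of at least 1.2-fold on each array, the mitotic genes Ccnb2 and Cdc25c were lower in the null pool and no gene was higher. The background at that size was 1.09% of all genes lower and 1.7% higher. These calls depended on the processing. Under median centring in place of loess no gene was lower by that rule, and the share of all genes was not computed there. With the scanner software's own ratios 4 genes were lower and 1, Cdc45, was higher. Of all genes 2.24% were lower and 3.55% higher by the rule in those ratios.

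When the dyes were exchanged, the 47 genes held a direction about as often as all genes did. The ratio was negative on both arrays for 12 genes and positive on both for 9, where all genes gave 24.3% and 22.7%, and it had opposite signs for 26 genes, where all genes gave 53%. The mean ratio lay within 0.2 of 0 for 38 of the 47 genes (80.9%), compared with 91.6% of all genes. Across the 47 genes, which are not independent replicates and share both pools and both arrays, the correlation between the ratios of array 1 and array 2 was r = 0.13, compared with r = 0.32 across all genes.

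**Figure D1:**
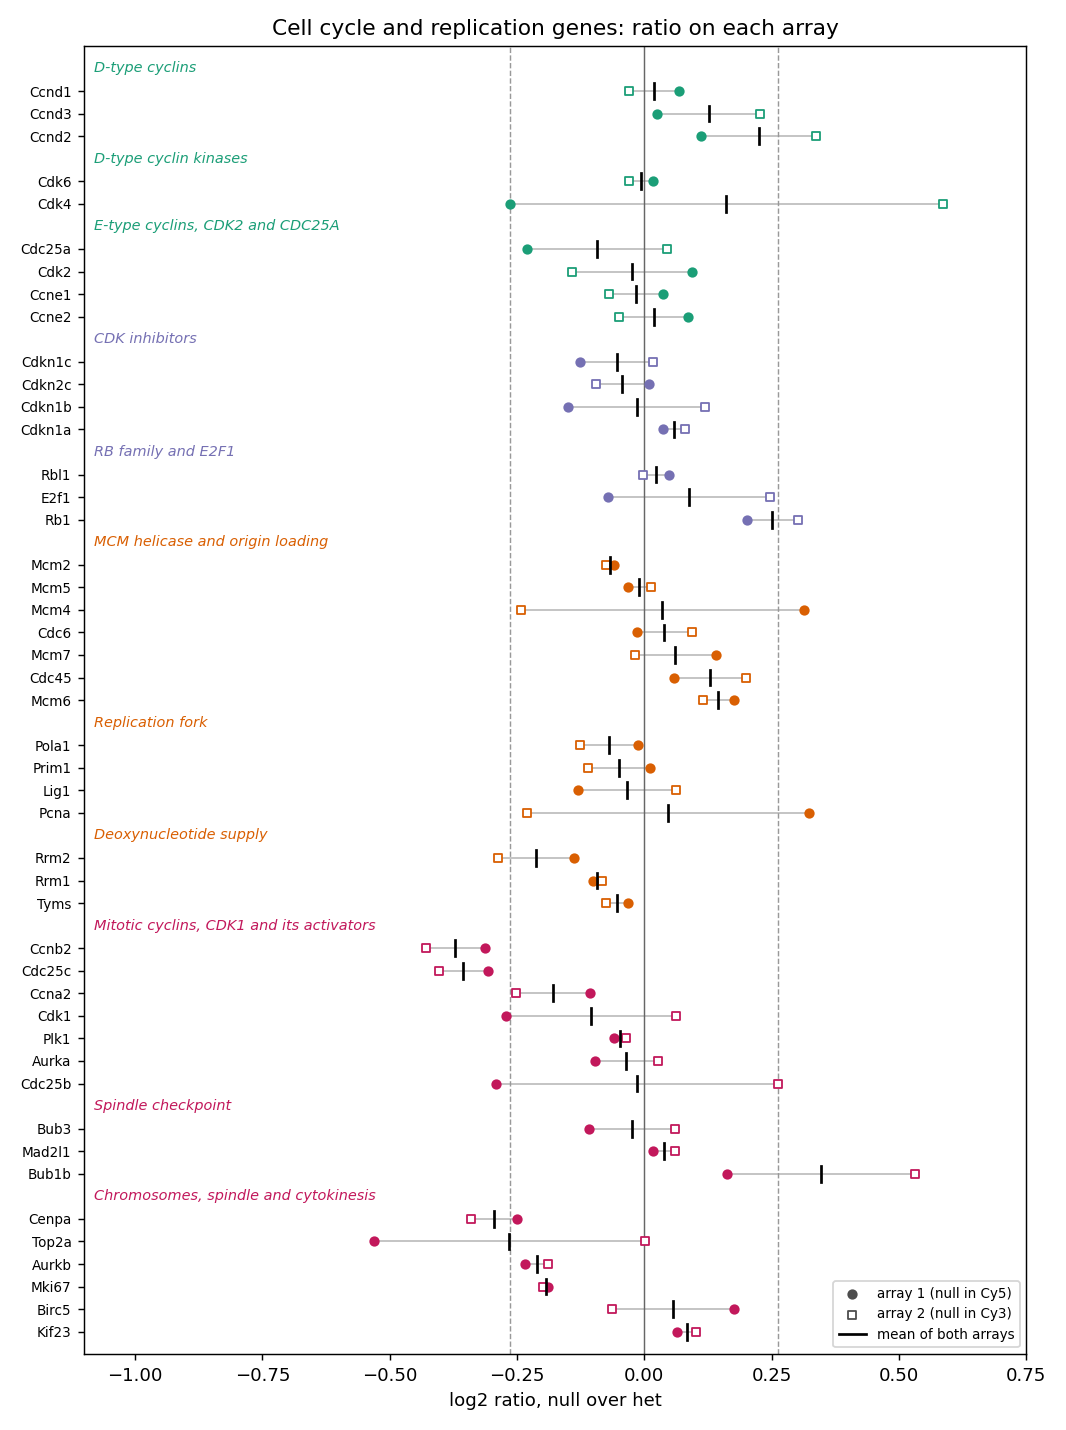
Log2 ratio of null over het for the genes described here, ordered by role, with array 1 as a filled circle, array 2 as an open square and the mean as a black bar; dashed lines mark 1.2-fold. Only Ccnb2 and Cdc25c have both points beyond the same dashed line, and many genes have points on opposite sides of 0.

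**Figure D2:**
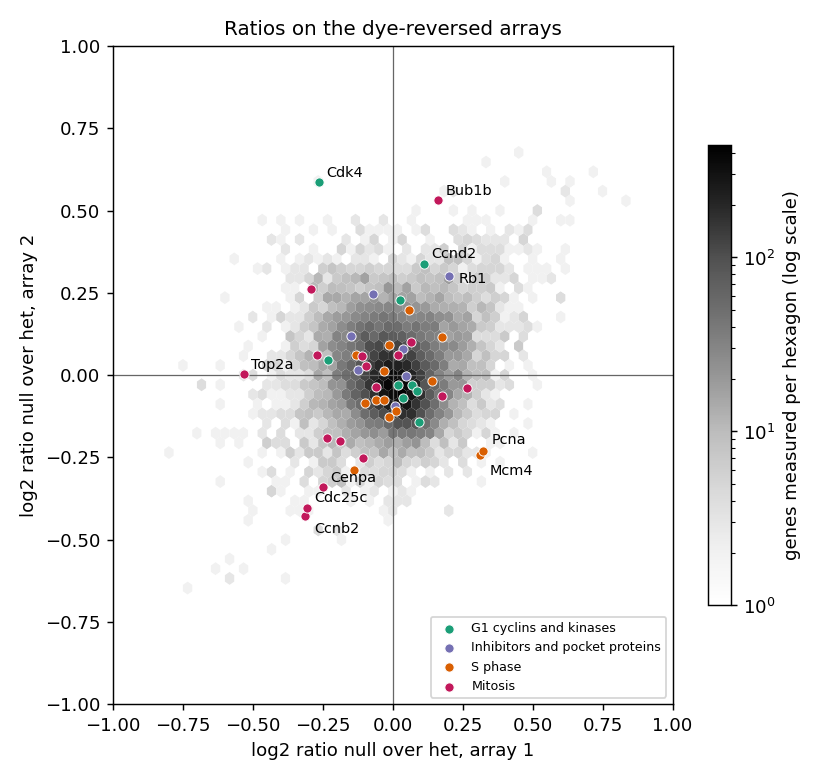
Log2 ratio of null over het on array 1 (horizontal) against array 2 (vertical) for the 47 genes in colour, over a grey density of all 18508 genes measured (those within 1 log2 unit on both arrays are drawn, with the density on a log scale). Ccnb2, Cdc25c and Cenpa lie together at the lower left, Rb1, Ccnd2 and Bub1b at the upper right, and Pcna, Mcm4 and Cdk4 in the corners where the arrays disagree in sign.

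The 3 D-type cyclins, which carry mitogenic signals into the cycle, had a median ratio of 0.13, with 0.068 on array 1 and 0.23 on array 2. The normalized log2 signal of Ccnd2 was 10.89 in the null pool and 10.78 in the het pool on array 1, and 10.98 and 10.64 on array 2. Both null values lay above both het values. The mean ratio was 0.22 ± 0.16 (SD, n = 2 technical hybridisations), the highest of the G1 genes, and array 1 alone gave 0.11. Ccnd3 had 7.61 in null and 7.59 in het on array 1, and 7.60 and 7.38 on array 2, with a mean ratio of 0.13 ± 0.14 that came almost wholly from array 2. Ccnd1 had 7.92 in null and 7.85 in het on array 1 and 8.07 and 8.10 on array 2, and its ratio of 0.02 ± 0.07 changed sign between the arrays.

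None of the other 6 G1 genes had the same sign on both arrays, where 53% of all genes had opposite signs. Cdk4, the catalytic partner of the D-type cyclins, had 8.46 in null and 8.72 in het on array 1, but 8.44 and 7.86 on array 2. Its ratios of -0.26 and 0.59 gave a mean of 0.16 ± 0.60, the widest gap between the arrays among the 47 genes. The null signal of Cdk4 was alike on both arrays, and the het signal, in Cy3 on array 1 and in Cy5 on array 2, was the one that moved. Cdk6, the other D-type partner, had a ratio of -0.01 ± 0.03 at its brighter probe and -0.02 at a probe that was not well above background. Cdc25a, the phosphatase that activates CDK2, had 7.11 in null and 7.34 in het on array 1 and 7.46 and 7.42 on array 2, a ratio of -0.09 ± 0.19. The E-type cyclins Ccne1 and Ccne2 and their kinase Cdk2, which open S phase, lay between -0.02 and 0.02. The median of the 9 G1 genes was 0.018, with 0.036 on array 1 and -0.030 on array 2.

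The 4 inhibitors of the kinases had mean ratios between -0.05 and 0.06. Cdkn1a, which encodes p21, a target of p53, had 6.55 in null and 6.52 in het on array 1 and 6.64 and 6.56 on array 2, a ratio of 0.06 ± 0.03. Cdkn1b, which encodes p27, the inhibitor that accumulates as granulosa cells leave the cycle, had 6.31 and 6.45 on array 1 and 6.57 and 6.45 on array 2, a ratio of -0.02 ± 0.19. These were among the dimmest signals here, and background correction with an offset pulls the ratio of a dim probe toward 0. In the scanner software's own ratios Cdkn1b had -0.51 on array 1 and 0.098 on array 2, averaging -0.21, and Cdkn1a had -0.0053 and 0.087. Cdkn1c, the gene of p57, had 7.08 in null and 7.21 in het on array 1 and 7.06 and 7.04 on array 2, a ratio of -0.05 ± 0.10. Cdkn2c, the gene of p18, which binds CDK4 and CDK6, had 8.83 and 8.82 on array 1 and 8.88 and 8.97 on array 2, a ratio of -0.04 ± 0.07. Only Cdkn1a of the 4 had the same sign on both arrays, where 53% of all genes had opposite signs. In the scanner software's ratios Cdkn1a did not keep its sign. There Cdkn1c (-0.15 and -0.018) and Cdkn2c (-0.020 and -0.089) were negative on both arrays.

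Rb1, the gene of the retinoblastoma protein, was the member of this group farthest from 0. Its signal was 8.62 in null and 8.42 in het on array 1, and 8.15 and 7.85 on array 2. The null pool was higher within each array, although the null value of array 2 lay below the het value of array 1. The mean ratio was 0.25 ± 0.07, or 1.19-fold, below 1.2-fold on array 1 and above it on array 2. The related pocket protein gene Rbl1, for p107, had 0.02 ± 0.04, and E2f1, the transcription factor gene that the pocket proteins restrain, had 0.09 ± 0.22 with opposite signs. The median of the inhibitor and pocket protein group, all 7 genes with E2f1 included, was 0.022.

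**Figure D3:**
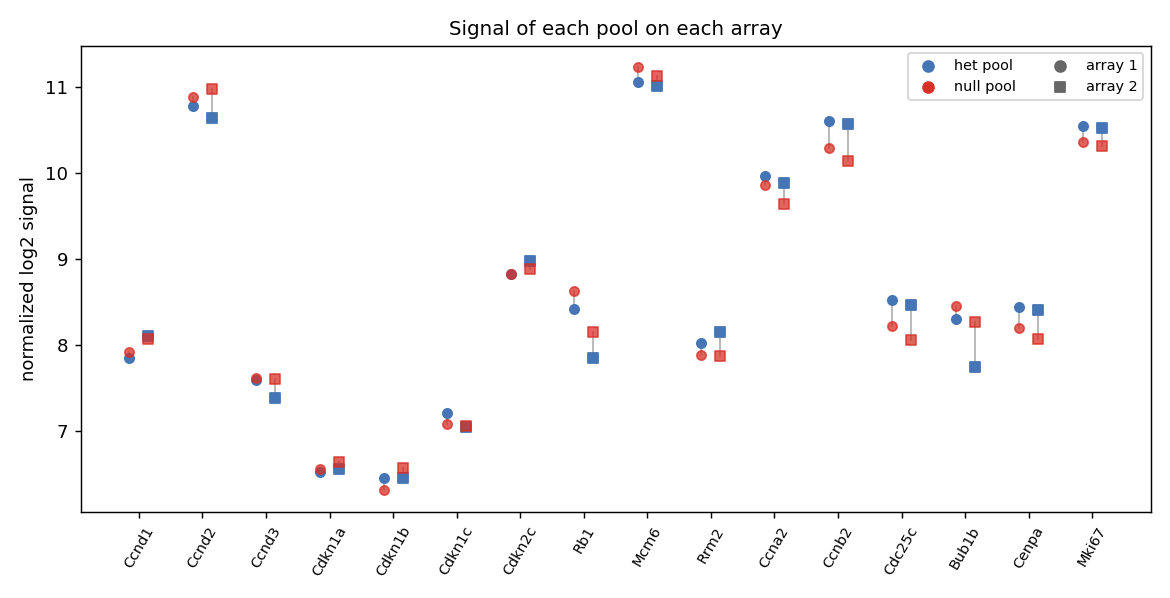
Normalized log2 signal of 16 genes in the het pool (blue) and the null pool (red) on array 1 (circles) and array 2 (squares). Only the pools within a gene can be compared, since probes differ in brightness. Ccnb2, Cdc25c, Cenpa, Mki67, Rrm2 and Ccna2 are lower in null within each array. Ccnd2, Ccnd3, Cdkn1a, Rb1, Mcm6 and Bub1b are higher, Ccnd3 by only 0.025 on array 1 and Cdkn1a by 0.036.

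The 14 S phase genes had a median ratio of -0.022, with -0.013 on array 1 and -0.075 on array 2. On both arrays 5 (35.7%) were negative and 2 (14.3%) positive, against 24.3% and 22.7% of all genes. The other 7 had opposite signs, as did 53% of all genes. Mcm6, a subunit of the helicase that is loaded at replication origins, had 11.23 in null and 11.06 in het on array 1 and 11.13 and 11.01 on array 2. Both null values lay above both het values, and the mean ratio was 0.14 ± 0.04. Its partners in the same ring lay nearer 0: Mcm2 had -0.07 ± 0.01, Mcm5 had -0.01 ± 0.03, Mcm7 had 0.06 ± 0.11 and Mcm4 had 0.04 ± 0.39. Cdc6, which loads the helicase, had 0.04 ± 0.08. Its null signal was the dimmest of the 47 genes, at a mean of 6.23, and its ratio in the scanner software's own values was 0.19. Cdc45, which joins the helicase as it fires, had 0.13 ± 0.10, positive on both arrays. Its ratio in the scanner software's own values was 0.56, above 1.2-fold on each array, as were 3.55% of all genes there; its signal was dim, at 6.32 in null and 6.13 in het on array 2.

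At the replication fork, the sign of Pcna changed with the dyes, as it did for Mcm4. Pcna, the sliding clamp that holds polymerases on DNA, had 10.77 in null and 10.45 in het on array 1, and 10.46 in null and 10.69 in het on array 2. Its ratio thus went from 0.32 to -0.23, and that of Mcm4 from 0.31 to -0.24. In both genes the pool labelled with Cy5 was the brighter on each array. The fork gene farthest from 0 on average was Pola1, for the catalytic subunit of the polymerase that makes primers with primase. It had 7.78 in null and 7.79 in het on array 1 and 7.58 and 7.70 on array 2, a ratio of -0.07 ± 0.08. The primase gene Prim1 and the gene of the ligase that joins Okazaki fragments, Lig1, had -0.05 ± 0.09 and -0.03 ± 0.14, each with opposite signs.

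All 3 genes of deoxynucleotide supply were lower in the null pool on both arrays, by small amounts, as were 24.3% of all genes by sign alone. Rrm2, the small subunit gene of ribonucleotide reductase, whose level follows S phase, had 7.89 in null and 8.02 in het on array 1 and 7.87 and 8.15 on array 2. Both null values lay below both het values, and the ratio was -0.21 ± 0.11. Rrm1, for the large subunit of the same enzyme, had -0.09 ± 0.01. Tyms, for the enzyme that makes thymidylate, had -0.05 ± 0.03, while its dimmer probe gave 0.01, so its sign rests on the choice of probe.

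Of the 4 groups described here, the mitotic genes spread most. Their 17 ratios ran from -0.37 for Ccnb2 to 0.35 for Bub1b, with a median of -0.048. Their SD across genes was 0.189, against 0.146 for all 47 genes and 0.136 for all genes measured, which were not matched for signal. It was 0.155 for the further mitotic genes and 0.233 for the further inhibitor, E2F and pocket protein list given below. On both arrays 7 (41.2%) were negative and 3 (17.6%) positive, against 24.3% and 22.7% of all genes. The other 7 had opposite signs, as did 53% of all genes. The scanner software's own ratios gave the group a median of -0.054, and array 1 alone gave -0.11 and array 2 alone -0.036.

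Ccnb2 encodes cyclin B2, a partner of CDK1 in mitosis, and had the lowest mean ratio. Its log2 signal was 10.29 in null and 10.61 in het on array 1, and 10.14 and 10.57 on array 2. Both null values lay below both het values. The ratio was -0.37 ± 0.08, or 1.29-fold lower in the null pool. Under median centring the mean was -0.42, no longer 1.2-fold on each array. Its promoter is printed because this gene lies at the lower end of the 47. The sequence is RefSeq's for the 250 bases before the gene's start, GRCm38.p6, chr9:70421555-70421804, minus strand, written 5′ to 3′ along the gene. Capitals mark 1 TTTGAA and 3 CCAAT, letters that resemble the CHR element and the CCAAT box known from promoters of mitotic genes.
Ccnb2: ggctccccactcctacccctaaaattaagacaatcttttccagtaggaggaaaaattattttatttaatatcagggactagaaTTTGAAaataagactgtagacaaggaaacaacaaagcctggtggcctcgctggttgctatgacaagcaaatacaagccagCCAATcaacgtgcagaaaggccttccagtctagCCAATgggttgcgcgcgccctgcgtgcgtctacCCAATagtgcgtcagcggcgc

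The TTTGAA lay 167 to 162 bases before the start of Ccnb2, and the CCAAT copies lay at 87 to 83, 54 to 50 and 21 to 17 bases. A match of letters is a description of the sequence, not evidence of a working site.

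Cdc25c, whose product removes the inhibitory phosphates of CDK1 at the entry into mitosis, had nearly the same values as Ccnb2. Its signal was 8.22 in null and 8.52 in het on array 1, and 8.06 and 8.46 on array 2. The null values again lay below both het values, with a ratio of -0.36 ± 0.07, or 1.28-fold lower. Under median centring the mean was -0.38, again not 1.2-fold on each array. Ccna2, the cyclin of S phase and early mitosis, had 9.86 in null and 9.97 in het on array 1 and 9.64 and 9.89 on array 2. Here the null value of array 1 was just below the het value of array 2, and the ratio was -0.18 ± 0.10. Plk1, the polo-like kinase gene, was also negative on both arrays, at -0.05 ± 0.02.

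Other mitotic regulators had opposite signs on the arrays, among them Cdk1, the kinase gene itself, at -0.10 ± 0.24, the phosphatase gene Cdc25b at -0.01 ± 0.39, and the kinase gene Aurka at -0.04 ± 0.09. The median of the 8 cyclins, CDK1 and activators was -0.076, with -0.19 on array 1 and -0.038 on array 2. Ccnb2 and Cdc25c were thus lower on both arrays while the kinase gene Cdk1 did not keep a direction.

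The spindle checkpoint holds the cell in metaphase until every chromosome is attached. Its gene Bub1b, for the checkpoint kinase BUBR1, had the highest mean ratio of the 47 genes. Its signal was 8.46 in null and 8.30 in het on array 1, and 8.27 and 7.74 on array 2. The null pool was higher on each array, but the null value of array 2 was below the het value of array 1. The ratios of 0.16 and 0.53 gave 0.35 ± 0.26, or 1.27-fold, with array 1 alone below 1.2-fold. Mad2l1, another checkpoint gene, had 0.04 ± 0.03, and Bub3 had -0.02 ± 0.12. The promoter of Bub1b is printed as that of the gene at the upper end, from the same source, chr2:118597961-118598210, plus strand. Capitals mark TTCGAA, which reads the same on both strands, and ATTGG, which is CCAAT on the opposite strand.
Bub1b: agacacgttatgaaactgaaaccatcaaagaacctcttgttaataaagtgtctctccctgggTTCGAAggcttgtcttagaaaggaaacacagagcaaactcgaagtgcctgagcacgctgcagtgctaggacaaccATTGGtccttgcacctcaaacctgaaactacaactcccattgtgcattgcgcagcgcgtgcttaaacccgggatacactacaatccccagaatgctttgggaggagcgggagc

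The TTCGAA lay 188 to 183 bases and the reversed CCAAT 113 to 109 bases before the start of Bub1b.

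Genes of chromosome structure, spindle and cytokinesis had the lowest median of the 11 roles, -0.20 over 6 genes, with -0.21 on array 1 and -0.13 on array 2. Cenpa, for the histone H3 variant that marks centromeres, had 8.19 in null and 8.44 in het on array 1, and 8.06 and 8.40 on array 2. Both null values lay below both het values, the ratio was -0.30 ± 0.06, and array 1 alone stayed just under 1.2-fold. Mki67, the proliferation marker Ki-67 that coats mitotic chromosomes, had 10.36 and 10.55 on array 1 and 10.32 and 10.52 on array 2. Its ratios were nearly identical on both arrays, with a mean of -0.19 ± 0.01, or 1.14-fold lower.

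Aurkb, the kinase of the chromosomal passenger complex, had 7.12 in null and 7.35 in het on array 1 and 7.02 and 7.21 on array 2, a ratio of -0.21 ± 0.03. Birc5, for survivin, a subunit of that same complex, had 0.06 ± 0.17 with opposite signs. Top2a, the topoisomerase that untangles chromosomes, had 7.25 in null and 7.78 in het on array 1 but 7.43 in both pools on array 2, so its mean of -0.26 ± 0.38 rests on array 1. Kif23, a kinesin gene of cytokinesis, had 0.08 ± 0.03 at its brighter probe and -0.02 at the other. In the scanner software's own ratios Cenpa and Aurkb passed 1.2-fold on both arrays beside Ccnb2 and Cdc25c, as did 2.24% of all genes. The promoter of Cenpa, chosen after the values were seen, is printed beside that of Ccnb2 because both genes were lower on each array. It comes from the same source, chr5:30666636-30666885, plus strand, and capitals mark ATTGG, which is CCAAT on the opposite strand.
Cenpa: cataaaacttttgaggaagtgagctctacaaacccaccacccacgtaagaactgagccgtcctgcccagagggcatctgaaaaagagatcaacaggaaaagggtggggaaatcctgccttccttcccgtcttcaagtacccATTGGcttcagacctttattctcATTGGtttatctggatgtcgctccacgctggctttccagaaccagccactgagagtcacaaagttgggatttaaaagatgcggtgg

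The reversed CCAAT copies lay 109 to 105 and 86 to 82 bases before the start of Cenpa. Thus CCAAT occurs in the printed windows of Ccnb2, Cenpa and Bub1b alike, whose ratios lay at opposite ends.

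Over all genes of the table, promoters of 38 of the 47 genes could be matched, in RefSeq's 250 bases before the start, on both strands. CCAAT occurred in 26 of the 38 genes, while 33.8% of all 32851 promoters held it. It was in 12 of 14 mitotic, 10 of 13 S phase, 3 of 6 G1 and 1 of 5 inhibitor and pocket protein genes. Of the genes negative on both arrays 8 of 9 held it, and of those positive on both 5 of 7. TTTGAA was in 7 of the 38 genes and 16% of all promoters, TTCGAA in 3 and 1.34%. Of the forms that E2F factors are known to bind, TTGGCGC was in 7 genes and 1.97% of all promoters, TTCGCGC in 4 and 1.28%, TTGGCGG in 3 and 2.17%, and TTCCCGC in 7 and 3.82%. At least 1 of these forms was in 14 of the 38 genes and 8.45% of all promoters, and in 7 of the 13 S phase genes. The reverse of CCAAT can overlap the forms that begin with TTGG, so these counts are not independent. A gene counts if any of its promoters holds the letters, and the 38 genes have 45 promoters, which raises its share above a count per promoter. Ccnd2 had no entry in the table.

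Other genes of the same processes, 98 of 156 listed genes measured in 5 lists, gave medians near 0 as well. None passed the 2-fold rule. At least 1.2-fold on both arrays, 7 were higher (Orc5, Orc1, Dnmt1, Uhrf1, Myc, E2f5 and Gadd45a) and 3 lower (Lmnb1, Cdca3 and Ccni), beside the 1.7% and 1.09% of all genes. E2f5, an E2F family gene named after its value was seen, had 0.37 ± 0.10. Further origin licensing and firing genes had a median of 0.049 over 13 of 21 listed, with 6 positive and 1 negative on both arrays. For such counts all genes gave 22.7% positive and 24.3% negative. Orc5 and Orc1, subunits of the origin recognition complex, had 0.38 ± 0.01 and 0.36 ± 0.06. Further polymerase and fork genes had a median of -0.013 over 23 of 29, with 5 positive and 7 negative on both arrays. Highest there were Dnmt1, the methyltransferase that copies DNA methylation after replication, at 0.41 ± 0.03, and Uhrf1, which recruits it, at 0.36 ± 0.08.

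Further mitotic kinases, kinesins and spindle genes had a median of -0.0051 over 27 of 54, with 6 positive and 6 negative on both arrays. All genes gave 22.7% positive and 24.3% negative, the shares to set beside the counts of the lists that follow too. The members farthest from 0 were Lmnb1, for the nuclear lamina protein lamin B1, at -0.50 ± 0.04, and Cdca3, a gene of mitotic entry, at -0.40 ± 0.05. Thus the lower values of Ccnb2, Cdc25c and Cenpa were not shared by the median mitotic gene. Further inhibitor, E2F and pocket protein genes, listed together with other regulators such as Myc, Foxo1 and Ccng1, had a median of 0.052 over 17 of 30. Of the 17 measured, 8 were positive and 4 negative on both arrays. Farthest from 0 were Myc, the growth-promoting transcription factor gene, at 0.55 ± 0.03, and Ccni, an atypical cyclin gene, at -0.45 ± 0.12. DNA damage checkpoint and p53 target genes had a median of 0.059 over 18 of 22, with 8 positive and 0 negative on both arrays. Among them Gadd45a, induced by growth arrest and DNA damage, had 0.44 ± 0.04, and Chek1, the checkpoint kinase gene, had 0.24 ± 0.02.

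**Figure D4:**
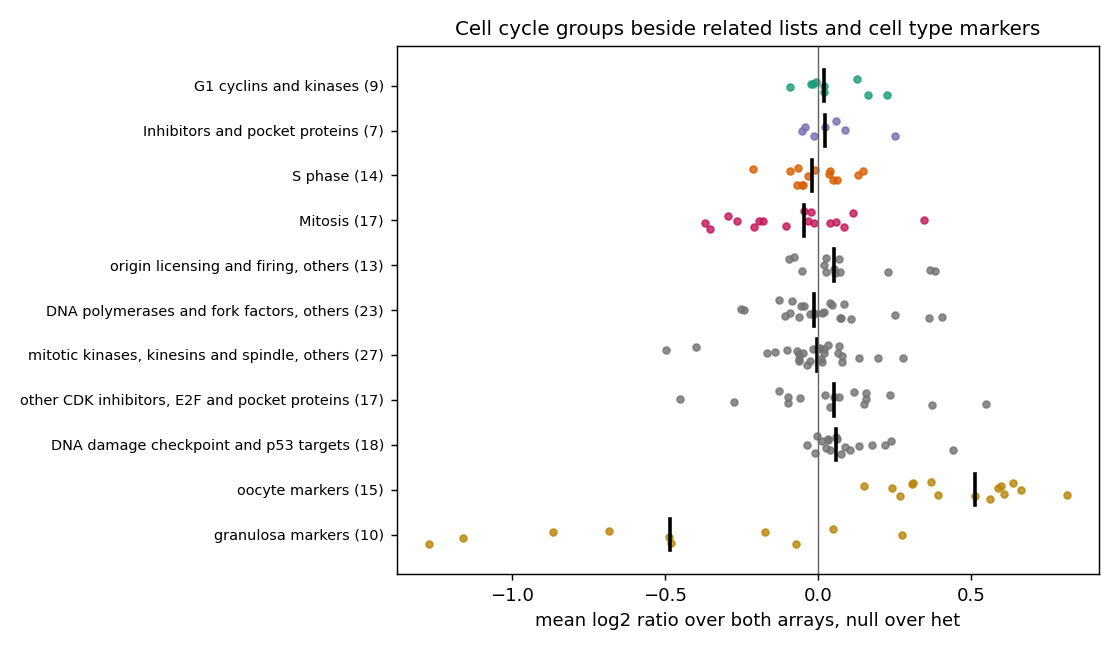
Mean log2 ratio over both arrays of each measured gene (points, with the number of genes in brackets and a black bar at the median) in the 4 groups described here, in 5 lists of related genes, and in the oocyte and granulosa marker lists. The 4 groups and 5 lists have medians between -0.048 and 0.059, whereas oocyte markers lie above 0 and granulosa markers have a median of -0.48.

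Of 8 cell type marker lists, the granulosa and oocyte lists had the medians farthest from 0. Granulosa markers were well above background in both pools for all 10 genes with a probe. Their median ratio was -0.48, with -0.82 on array 1 and -0.14 on array 2. The list includes Esr2 itself, the gene that differs between the genotypes. Of the 10 genes 7 were negative and 1 positive on both arrays, beside 24.3% and 22.7% of all genes, and 2 had opposite signs. Mean ratios ran from -1.27 for Cyp19a1 to 0.27 for Amh. The summed signal was 11263 and 13954 in null against 28051 and 21215 in het on arrays 1 and 2. That sum mostly follows its brightest gene, Inhba, at 12.65 in null and 14.16 in het on array 1 and 12.87 and 13.68 on array 2. Oocyte markers had a median ratio of 0.51 (0.46 on array 1 and 0.44 on array 2), with 15 of 15 measured genes positive on both arrays. Their summed signal was 20275 and 17393 in null against 11959 and 12064 in het. Gdf9 and Zp3, an oocyte growth factor and an egg coat protein gene, had 0.81 ± 0.30 and 0.64 ± 0.38, while Figla was not well above background. Oocytes also hold transcripts of cell cycle genes, and the part of these cells in the ratios above was not tested. In pooled RNA, fewer cells of a type and less RNA per cell cannot be told apart. Medians of the other 6 cell type lists lay between -0.086 (theca) and 0.13 (surface epithelium). The Esr2 probe itself had -0.48 ± 0.03, but where it lies with respect to the deletion is not given in the sources used here, so it checks no genotype.

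**Figure D5:**
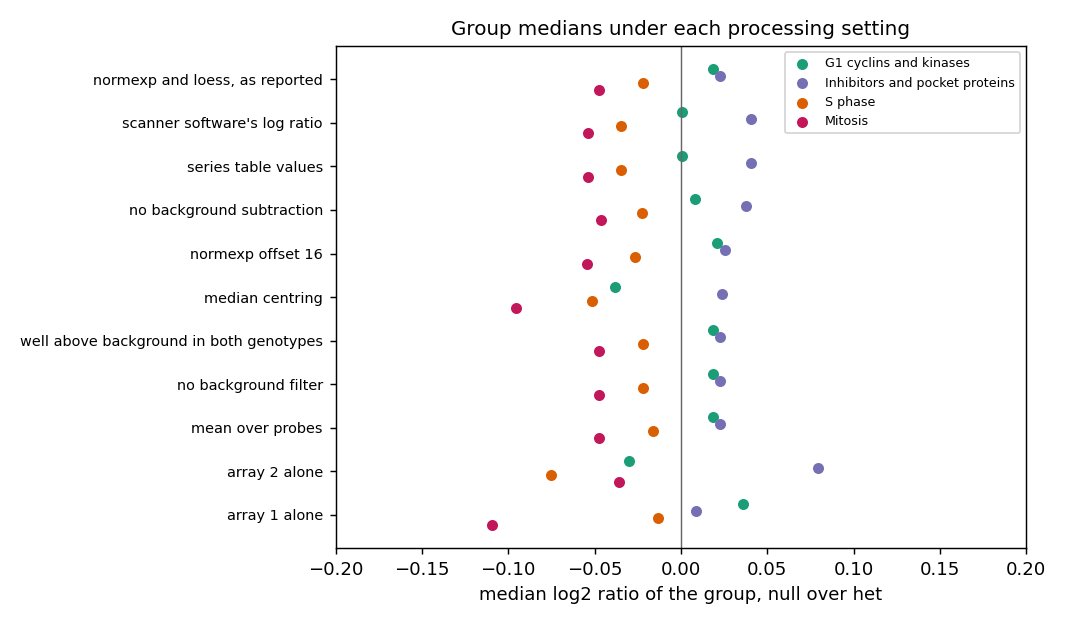
Median log2 ratio of the 4 groups under each processing setting, including each array alone. Mitotic and S phase medians lie below 0 in every setting drawn. The median of the inhibitor and pocket protein group, which includes E2f1, lies above 0 in each. The G1 median changes sign with array 2 alone and under median centring.

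The group medians stayed small across processing settings, none beyond 0.11 on either side of 0. They kept their sign under the scanner software's ratios, although the G1 median shrank there to 0.00060. Under median centring 5 genes were negative and 4 positive on both arrays. The share of all genes was not computed under that setting, so these counts have no background beside them. The scanner software's error model, which covers measurement error of the spot only, put no gene of the 47 under an error-model p of 0.01 on both arrays with the same sign, where 0.492% of all genes were lower and 0.594% higher by that rule.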

How the data were processed

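Per the labels, total RNA (500 ng) was amplified into Cy3 or Cy5 cRNA, and 750 ng of each was hybridised for 17 h to Agilent oligonucleotide arrays. The deposited scanner files hold spot and background intensity values, and per the file headers come from Agilent Feature Extraction A.7.5.1. Their deposited log ratio is log10 of red over green, with a deposited error-model p-value and flags per spot. The deposited series table holds log2 values whose scale and direction are not stated. The column median over probes was 0 on array 1 and 0.0022 on array 2. Each column matched red over green of its array within 0.001, for 99.9% and 99.8% of the probes not left out on flags. No further centring was found.

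Computed here, in R 4.3.3 with limma 3.58.1 and Python 3.11.15: normexp correction (offset 50) of mean signal over median background, within-array loess that gave control spots weight 0, Aquantile scaling for the signal of each pool, and ratios turned to null over het and averaged as 1 replicate. Outlier-flagged spots were left out and saturated ones kept. Each array had 21318 non-control spots, with 87.2% to 95.1% well above background per channel. Of 20868 probes, 8947 were named through accessions, 1164 through a symbol in the description and 10 through a full gene name, which alone named 7 of the 47 genes (Cdk4, Cdkn1a, Mki67, Prim1, Tyms, Aurka and Aurkb); 10747 stayed unnamed. The brightest of several probes stood for a gene. A gene counted as measured when well above background in at least 1 genotype on both arrays. Call rules were checked on simulated data, where recovery was required only for changes larger than any found in the 47 genes. The value of 1 mitotic gene that the counts and medians include is not reported here. Named genes were those at least 1.2-fold the same way on both arrays, the D-type cyclins, the CDK inhibitors, the member of each role farthest from 0 and, in further lists, the 2 farthest from 0 with the same sign on both arrays; other members are named with their mean ratio. The members and lists were chosen with earlier results of these data known. Alternatives were the scanner ratios, the series table, no background subtraction, offset 16, median centring, stricter and no background filters, averaged probes and single arrays; for counts also a 1.5-fold mean and the error model. Naming by accession or symbol only was added after seeing the data.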

Additional observations from a re-analysis of the deposited data

How the results depend on the processing

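No gene of the 47 passed the 2-fold rule in any setting run. The median of the 47 genes (-0.015) was -0.032 with the scanner software's ratios, -0.032 with the series table, -0.025 with no background subtraction, -0.022 with offset 16, -0.039 with median centring, and -0.019 to -0.014 with 1 array alone. The G1 median (0.018) was -0.038 with median centring and -0.030 to 0.036 with 1 array; the inhibitor and pocket protein median was 0.0088 to 0.080, the S phase median -0.075 to -0.013 and the mitotic median -0.11 to -0.036 with 1 array. Genes at least 1.2-fold lower on both arrays (2) numbered 4 with the scanner and series values, 0 with median centring, 0 by the error model and, on that array only, 4 to 6 with 1 array; higher genes (0) numbered 1 with the scanner and series values, 0 by the error model and 3 to 4 with 1 array. Genes negative on both arrays (12) numbered 5 with median centring and 25 with either array alone. Positive ones (9) numbered 4 and 22. With the scanner values 2.24% of all genes were at least 1.2-fold lower on both arrays and 3.55% higher. By sign or at 1.2-fold, no share of all genes was computed for median centring or 1 array, so those counts lack a background. Of all genes, the 7 higher and 17 lower by the 2-fold rule became 26 and 45 with the scanner and series values, 13 and 30 with offset 16, 75 and 79 at a 1.5-fold mean, and 7 to 12 and 10 to 40 with 1 array. Apart from rules that ask less (1 array, the 1.5-fold mean), the cause was not tested. The mean ratio of a single gene changed sign for 3 genes with the scanner values and 6 with median centring. With array 2 alone 18 of the 47 genes changed sign, and with array 1 alone 8 did. The all-gene median was between -0.0060 and -0.0013 in each setting over both arrays. Signal near background limits the dim genes, such as Cdc6, Cdc45, E2f1 and the CDK inhibitors Cdkn1a and Cdkn1b. No paired analysis was possible because each genotype had only 1 pool.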
